A study of Mus musculus with 27 samples.

Results

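The 10 genes followed here through mouse bone marrow cultures mark early B cell development and antigen receptor gene recombination. They are Ebf1, Pax5, Lef1, Rag1, Rag2, Dntt, Igll1, Vpreb1, Vpreb3 and Blnk, of 19935 genes tested on the array. A gene entered through a probe set that the platform annotation gives to that symbol and to no other gene, and each of the 10 had exactly 1 such probe set. The series holds 27 one-colour arrays of total RNA from C57BL/6 bone marrow cells, taken from femurs and tibiae of mice aged 8 to 12 weeks. There are 9 groups of 3 biological replicates. In 4 groups, cyclosporin A (CsA), an inhibitor of the phosphatase calcineurin, was added at 2 µg/ml for 30 min before Flt3 ligand (Flt3-L) and kept in the culture for 12 h, 24 h, 48 h or 11 days. In 4 further groups cells received Flt3-L alone for the same times, and the last group was unstimulated. Flt3-L, a growth factor that turns marrow progenitors into dendritic cells, was used at about 200 ng/ml and came from transfected B16 tumour cells, and the labels do not say that it was purified. All CsA cultures also held Flt3-L, and no array holds CsA without it. The labels do not state whether unstimulated cells were fresh or cultured, so time in culture and Flt3-L cannot be told apart in comparisons with them. They also do not say whether replicates were single or pooled mice.

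B cell precursors arise from lymphoid progenitors in the marrow under the transcription factors EBF1 and PAX5. The RAG1 and RAG2 proteins together cut antigen receptor gene segments, and terminal transferase, made from Dntt, adds bases at the joints. A rearranged heavy chain is first displayed with the surrogate light chain, made of the Igll1 and Vpreb1 products, as the pre-B cell receptor. BLNK is the adaptor that carries its signal. The cultures measured here favour dendritic cells, which descend from progenitors close to the lymphoid ones.

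The promoters of 4 members are shown because the results turn on them. Ebf1 was lower with CsA at the last time, Igll1 and Vpreb3 were lower with CsA at 48 h but not called at 11 days, and Blnk was the member that rose in culture. Each window runs from 250 bases before to 50 bases after the annotated start in RefSeq's GRCm38.p6 assembly and is printed 5′ to 3′ on the gene's strand. Capitals mark any of 5 motifs searched on both strands.
Ebf1, chr11:44617850-44618149, plus strand: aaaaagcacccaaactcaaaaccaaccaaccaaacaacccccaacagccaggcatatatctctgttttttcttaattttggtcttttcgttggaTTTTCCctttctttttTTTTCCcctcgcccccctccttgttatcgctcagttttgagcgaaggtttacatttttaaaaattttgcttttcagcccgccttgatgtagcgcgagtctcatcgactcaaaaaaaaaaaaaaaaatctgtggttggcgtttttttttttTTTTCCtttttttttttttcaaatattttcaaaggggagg
Igll1, chr16:16863936-16864235, minus strand: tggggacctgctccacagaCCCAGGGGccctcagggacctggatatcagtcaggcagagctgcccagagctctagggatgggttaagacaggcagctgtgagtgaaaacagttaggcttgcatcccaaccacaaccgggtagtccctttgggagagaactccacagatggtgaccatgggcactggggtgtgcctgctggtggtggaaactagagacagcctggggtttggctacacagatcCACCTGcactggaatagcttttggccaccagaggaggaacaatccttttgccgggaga
Vpreb3, chr10:75948050-75948349, plus strand: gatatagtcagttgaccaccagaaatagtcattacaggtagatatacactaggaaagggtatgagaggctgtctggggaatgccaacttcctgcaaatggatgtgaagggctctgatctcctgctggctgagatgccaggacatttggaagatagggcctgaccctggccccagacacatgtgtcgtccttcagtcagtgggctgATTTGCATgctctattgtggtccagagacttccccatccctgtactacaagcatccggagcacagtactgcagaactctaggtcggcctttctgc
Blnk, chr19:40994172-40994471, minus strand: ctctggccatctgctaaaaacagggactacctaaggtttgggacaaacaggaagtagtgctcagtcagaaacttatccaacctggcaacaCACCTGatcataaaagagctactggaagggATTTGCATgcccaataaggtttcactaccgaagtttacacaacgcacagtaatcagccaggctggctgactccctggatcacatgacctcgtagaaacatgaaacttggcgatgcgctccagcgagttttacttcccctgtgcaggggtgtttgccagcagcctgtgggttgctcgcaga

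The 10 members have 14 promoter windows, as some have several starts. The EBF1 core CCCNNGGG was found in 1 of the 14, that of Igll1 at position -231 from the start, and in 13.7% of all 32851 promoter windows. The octamer ATTTGCAT, read by OCT proteins, was found in Vpreb3 at -45 and in Blnk at -130, against 1.74% of all windows. The E-box CAGGTG, read by E2A, was found in 5 of the 14, 1 in each of 5 members, Igll1 at -8 and Blnk at -160 among them, and in 20.2% of all windows. The NFAT core GGAAAA was found in 4 of the 14, from 3 members, and in 23.4% of all windows. The Ebf1 window shown had 3 matches, and the other Ebf1 window, not shown, had none. The TCF/LEF motif CTTTGAT was found in 0 of the 14 windows of the members and in 3.73% of all windows. No matches overlapped, and a match describes the letters only. The members also include 3 pairs of neighbours with no protein-coding gene between them, namely Rag1 with Rag2 on chromosome 2, Dntt with Blnk on chromosome 19 and Vpreb1 with Igll1 on chromosome 16.

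All values below are linear RMA signals for levels and log2 differences for comparisons. Array medians ran from 114.2 to 124.8, and 25 of 27 arrays correlated best with one of the same group. Array 3 of CsA at 12 h and array 3 of CsA at 24 h instead correlated best with the Flt3-L array 3 of their time. The labelled tissue was checked on 12 granulocyte and erythroid genes of marrow, whose summed signal was 1749 to 1964 in Flt3-L alone at 11 days, against 58691 to 59028 in unstimulated cells. Over 13 macrophage genes the sums were 63521 to 65844 at 11 days and 16752 to 17020 in unstimulated cells. Genes of other marrow cells thus differed between these groups as well, and in bulk RNA fewer cells of a type and less RNA per cell cannot be told apart.

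The course in Flt3-L alone comes first. Ebf1, Pax5 and Lef1 were all far lower after 11 days, but Ebf1 and Pax5 kept most of their signal through 48 h. Ebf1, the factor that commits progenitors to the B lineage, had signals of 1313, 1147 and 1352 in unstimulated cells, 1741, 1406 and 1698 at 12 h, 1569, 1239 and 1464 at 24 h, 1138, 941 and 1078 at 48 h and 70.7, 74.1 and 93.2 at 11 days. All 12 h arrays lay above all unstimulated arrays, all 48 h arrays lay below them, and the 11 day arrays lay far below every other array in Flt3-L alone. Against unstimulated cells the log2 difference was 0.34 ± 0.14 at 12 h (SE, limma adjusted p = 0.0568) and -4.01 ± 0.14 at 11 days (limma adjusted p = 1.77e-18), the latest value being 16.1-fold lower. The 12 h difference passed the threshold with the replicate number as a block over all arrays (limma adjusted p = 0.0448), and also in a fit of only these groups, at 0.0131 without and 0.00221 with the block. It also passed without array 2 of Flt3-L at 12 h, at 0.0286. The 48 h difference, -0.27 ± 0.14, was not called (limma adjusted p = 0.139). In a fit of only those groups the 48 h difference passed, at 0.0354 without and 0.00759 with the block, though the numbers were not read as pairs there.

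Pax5, which maintains B cell identity, had signals of 1211, 1186 and 1247 in unstimulated cells, 1148, 1008 and 1138 at 12 h, 1224, 1051 and 1128 at 24 h, 995, 819.7 and 858 at 48 h and 123, 134 and 156 at 11 days. The 12 h, 48 h and 11 day arrays lay below all unstimulated arrays without overlap. The 12 h difference was not called, at -0.15 ± 0.10 (limma adjusted p = 0.279). Pax5 fell at 48 h, with a log2 difference of -0.45 ± 0.10 (limma adjusted p = 0.000752), and was 8.87-fold lower at 11 days, at -3.15 ± 0.10 (adjusted p = 4.39e-19). Lef1, a TCF/LEF family factor of lymphoid precursors, had signals of 295, 327 and 326 in unstimulated cells, 448, 399.9 and 382 at 12 h, 368, 289.7 and 302 at 24 h, 194, 178 and 195 at 48 h and 76.7, 65.6 and 76.7 at 11 days. Its arrays at 12 h were all above the unstimulated ones and its arrays at 48 h and 11 days all below. Lef1 rose at 12 h by 0.37 ± 0.088 on the log2 scale (limma adjusted p = 0.0014) and was lower at 48 h, at -0.74 ± 0.088 (adjusted p = 1.23e-07), and at 11 days, at -2.12 ± 0.088 (adjusted p = 7.31e-17).

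The recombinase genes were higher at 12 h and lower from 48 h, whereas Dntt was lower at every time. Rag1 had signals of 461, 401 and 517 in unstimulated cells, 778, 585 and 694 at 12 h, 616, 517 and 585 at 24 h, 334, 312 and 351 at 48 h and 37.2, 49.4 and 53.5 at 11 days. The 12 h arrays lay above and the 48 h arrays below all unstimulated arrays, and at 24 h the lowest array equalled the highest unstimulated one. Rag1 rose at 12 h by 0.58 ± 0.14 (limma adjusted p = 0.00172), differed by 0.32 ± 0.14 at 24 h (adjusted p = 0.0757), and fell by 9.90-fold at 11 days (log2 difference -3.31 ± 0.14, adjusted p = 8.41e-17). Rag2, its partner, had signals of 90.2, 79.9 and 107 in unstimulated cells, 139, 116 and 141 at 12 h, 110.1, 109 and 114 at 24 h, 66.7, 66.6 and 61.8 at 48 h and 22.2, 24.3 and 23.4 at 11 days. Its 12 h and 24 h arrays were all above the unstimulated arrays and its later arrays all below. Its log2 differences were 0.52 ± 0.11 at 12 h (limma adjusted p = 0.000662), 0.28 ± 0.11 at 24 h (adjusted p = 0.0593), -0.49 ± 0.11 at 48 h (adjusted p = 0.000909) and -1.98 ± 0.11 at 11 days (adjusted p = 5.59e-14). At 24 h, the replicate number as a block over all arrays gave limma adjusted p-values of 0.043 for Rag1 and 0.0565 for Rag2. A fit of only these groups passed both genes, at 0.0227 and 0.036 without the block and 0.00449 and 0.0179 with it. Both also passed without unstimulated array 3, at 0.0436 and 0.0139. The Rag1 decrease at 48 h, a log2 difference of -0.46 ± 0.14 (adjusted p = 0.0092), did not pass without that same array (0.0641).

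Dntt, the template-independent polymerase gene, had signals of 358, 380.4 and 343 in unstimulated cells, 310.2, 239 and 253 at 12 h, 188, 183 and 148 at 24 h, 133, 167 and 147 at 48 h and 50.4, 35.7 and 35.9 at 11 days. No array of any culture reached the lowest unstimulated array. Its log2 difference from unstimulated cells was -0.44 ± 0.15 at 12 h (limma adjusted p = 0.0194), -1.28 ± 0.15 at 48 h (adjusted p = 6.31e-08) and -3.17 ± 0.15 at 11 days (adjusted p = 5.8e-16). The 12 h decrease did not pass without unstimulated array 2 (limma adjusted p = 0.0682), Flt3-L 12 h array 2 (0.092) or Flt3-L 12 h array 3 (0.0668).

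The surrogate light chain gene Igll1 fell at every time, while Vpreb3 was first called at 48 h. Igll1, which encodes the lambda 5 part, had signals of 1958, 1939 and 2171 in unstimulated cells, 1671, 1542 and 1359 at 12 h, 1137, 984 and 953 at 24 h, 536, 462 and 434 at 48 h and 91.3, 114 and 110.1 at 11 days. Each later time lay below the one before it with no overlap of arrays. Igll1 differed by -0.41 ± 0.11 at 12 h (limma adjusted p = 0.00445), -0.98 ± 0.11 at 24 h (adjusted p = 6.3e-08) and -2.09 ± 0.11 at 48 h (adjusted p = 3.86e-14), which is 4.25-fold lower, and it was 19.3-fold lower at 11 days (adjusted p = 5.37e-21). Vpreb1, which encodes the other part, had signals of 106, 129.5 and 122 in unstimulated cells, 111, 95.2 and 95.6 at 12 h, 84.1, 81.8 and 74.4 at 24 h, 69.1, 65.5 and 61.9 at 48 h and 66.2, 60.4 and 53.2 at 11 days. Its arrays from 24 h on lay below all unstimulated arrays, and those of 48 h and 11 days overlapped each other. It fell by 1.99-fold at 11 days (limma adjusted p = 6.61e-08). Vpreb1 has a near-identical copy, Vpreb2, whose own probe set changed by -0.21 at 11 days (adjusted p = 0.142), so which copy the Vpreb1 probe set reports is uncertain.

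Vpreb3, a B lineage relative of the VpreB genes, had signals of 1557, 1392 and 1562 in unstimulated cells, 1618, 1394 and 1582 at 12 h, 1835, 1494 and 1552 at 24 h, 1206, 1055 and 1158 at 48 h and 119, 92.7 and 80.4 at 11 days. The arrays of unstimulated cells, 12 h and 24 h overlapped, and those of 48 h and 11 days lay below them. Its log2 difference was -0.40 ± 0.12 at 48 h (limma adjusted p = 0.0123, but 0.0601 without Flt3-L 48 h array 2) and -3.97 ± 0.12 at 11 days (adjusted p = 2.63e-19), which is 15.6-fold lower. Blnk, the adaptor gene, took the opposite course, with signals of 769, 715 and 779 in unstimulated cells, 988, 886 and 955 at 12 h, 1205, 1073 and 1079.8 at 24 h, 1169, 1151 and 1155 at 48 h and 1707, 1742 and 1826 at 11 days. Every cultured array lay above every unstimulated array. Blnk rose by 0.32 ± 0.071 at 12 h (limma adjusted p = 0.000772), 0.62 ± 0.071 at 48 h (adjusted p = 7.37e-08) and 1.22 ± 0.071 at 11 days (adjusted p = 7.67e-14), a 2.33-fold increase.

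**Figure D1:**
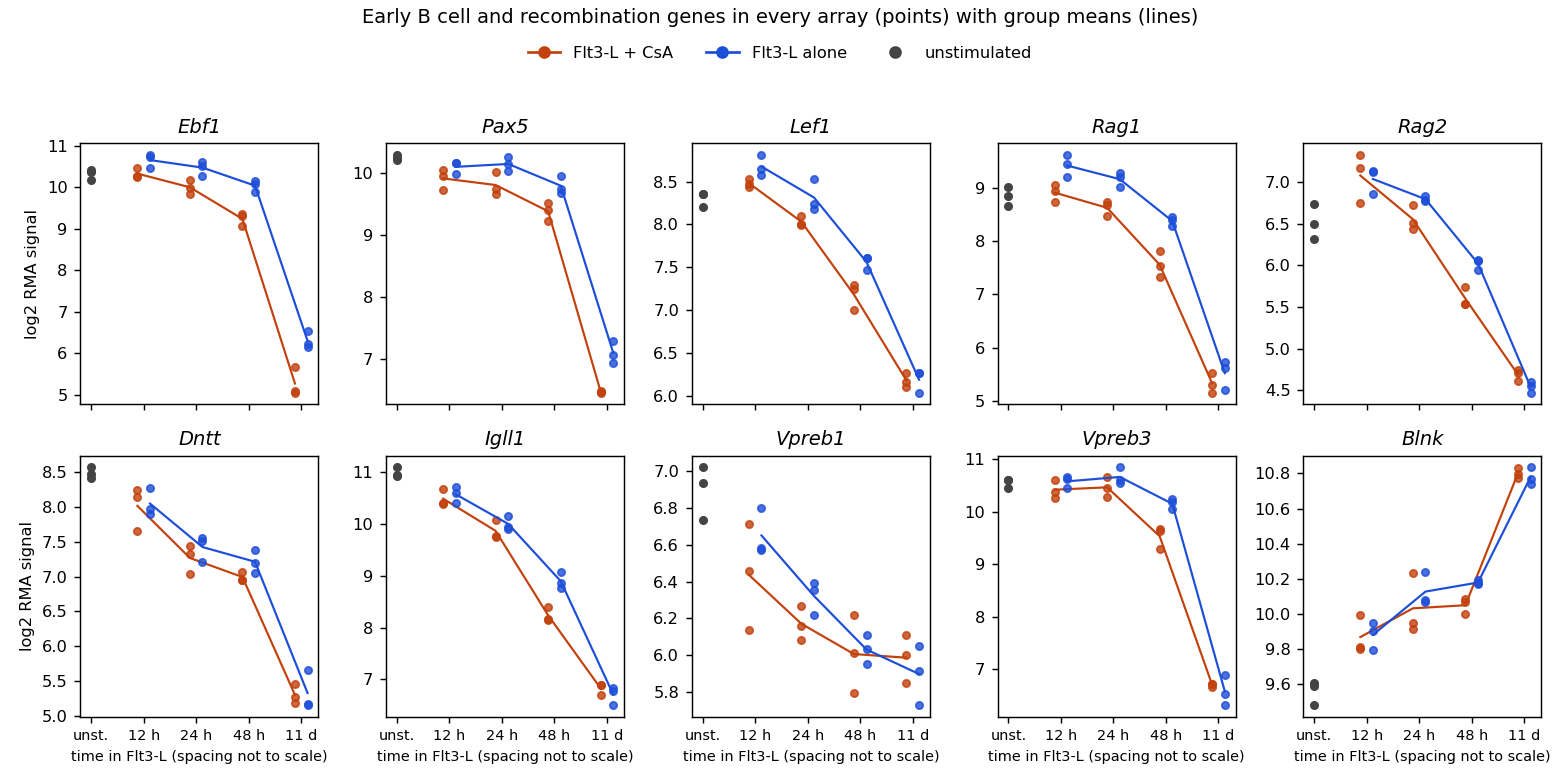
Log2 RMA signal of each member on every array (points, n = 3 a group) by time, with lines through the group means of CsA plus Flt3-L (orange) and Flt3-L alone (blue), and unstimulated arrays (grey) at the left. In linear units, Ebf1 signals in the CsA cultures at 11 days lay between 33.2 and 50.6, below the 70.7 to 93.2 of Flt3-L alone.

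Set against unstimulated cells, which all 4 comparisons share, Flt3-L alone at 12 h gave 4 members higher (Lef1, Rag1, Rag2 and Blnk) and 2 lower (Dntt and Igll1) at a limma adjusted p under 0.05, where 17.8% of all genes tested were called higher and 18.1% lower. At 24 h, 1 member was higher (Blnk) and 3 were lower (Dntt, Igll1 and Vpreb1), where 17.9% of all genes were higher and 17.7% lower. At 48 h, 1 was higher (Blnk), 8 were lower and Ebf1 was not called, where 18.5% of genes were higher and 18.6% lower. At 11 days, 1 was higher and 9 were lower, where 27.2% of genes were higher and 24.8% lower, and the median log2 difference was -3.16 over the members and 0.02 over all genes.

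The change at 11 days had been covered in different shares at 48 h. By then Ebf1 had gone through 6.81% of its log2 change at 11 days, Vpreb3 10.1%, Rag1 14.0% and Pax5 14.4%. For Rag2 the share was 25.0%, for Lef1 35.0%, Dntt 40.4%, Igll1 48.9%, Blnk 50.8% and Vpreb1 86.7%. These shares describe group means and were not tested against each other. Between neighbouring times in Flt3-L alone, 48 h against 24 h gave 7 members lower and 0 higher, where 7.43% of genes were called lower and 9.71% higher by limma (8 members at an unadjusted p under 0.05). The lowest was Igll1 at -1.10 ± 0.11 (limma adjusted p = 5.99e-08), with Rag1 at -0.78 (0.000193), Rag2 at -0.77 (1.81e-05) and Lef1 at -0.75 (6.9e-07). Of these 7, the Ebf1 step of -0.43 (0.0311) did not pass without Flt3-L 24 h array 1 (0.143) or 3 (0.0921) or 48 h array 2 (0.144) or 3 (0.0604). The Pax5 step of -0.35 (0.0169) did not pass without Flt3-L 24 h array 1 (0.0942) or 48 h array 2 (0.092) or 3 (0.065). Vpreb1, at -0.29 (adjusted p = 0.106), had 0.0522 with the replicate number as a block over all arrays, and passed in a fit of only these groups, at 0.0269 without and 0.00543 with the block.

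From 24 h against 12 h, Igll1 (-0.57, limma adjusted p = 0.000657), Dntt (-0.63, 0.00447) and Lef1 (-0.36, 0.00638) were lower and Blnk (0.25, 0.0232) was higher, where 5.52% of genes were called lower and 5.59% higher. Lef1 did not pass without Flt3-L 12 h array 1 (0.0563) or 24 h array 2 (0.0613), nor Blnk without Flt3-L 12 h array 2 (0.13) or 3 (0.0528) or 24 h array 1 (0.137). From 11 days against 48 h, 8 members were lower and Blnk was higher, where 18.8% of genes were called lower and 24.2% higher. Vpreb1 was the exception, at -0.13 with a 95% interval of -0.38 to 0.11 (adjusted p = 0.43).

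**Figure D2:**
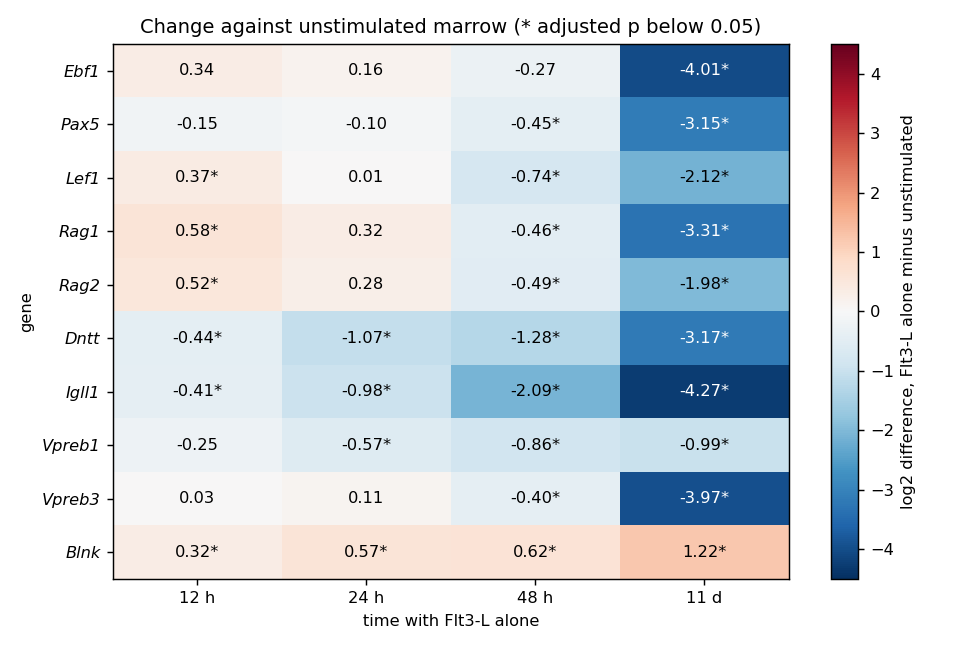
Log2 difference of each member in Flt3-L alone against unstimulated cells at 12 h, 24 h, 48 h and 11 days, as a colour and a printed value from the limma fit (n = 3 arrays a group), with an asterisk where the adjusted p was below 0.05. Blnk ended at 1.22 and the other members between -4.27 and -0.99, and Lef1, Rag1 and Rag2 were above 0 at 12 h.

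Other B lineage genes gave the surroundings of these changes. Of 21 B lineage regulators, 14 were lower and 6 higher in Flt3-L alone at 11 days than in unstimulated cells, with a median of -1.28, and Myb (-4.38, limma adjusted p = 3.33e-27), the B cell coactivator gene Pou2af1 (-3.15, 4.34e-17) and Ikzf3 (-2.81, 6.4e-18) were the lowest. Of 13 genes listed for V(D)J end joining, 10 were lower and 1 higher. Hmgb2, the gene of a DNA-bending cofactor, was at -3.03 (1.83e-21). The Ku subunit genes Xrcc5 and Xrcc6, whose products help repair the breaks RAG makes, were at -2.15 (2.29e-14) and -1.76 (3.58e-15). Of 17 genes of pre-B and B cell receptor signalling, 8 were lower and 5 higher, and the receptor chain gene Cd79a was at -2.77 (4.64e-18). Of 9 other surface genes of early B cells, 7 were lower and 1 higher.

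Markers of other cells moved in the same comparison. Of 9 mature B cell genes, 7 were lower and 0 higher at 11 days (limma; 8 at an unadjusted p under 0.05), with summed signals of 2937 to 3323 in Flt3-L alone, against 6128 to 6629 in unstimulated cells. At 48 h the same sums were 6059 to 6664, with 3 of these genes lower and 2 higher, while 8 of the 10 members were already lower. Of 18 T and NK cell genes 17 were lower and 1 higher at 11 days, of 11 division genes 10 were lower and 1 higher, and of 13 macrophage genes all 13 were higher. Plasmacytoid dendritic cells, which share genes with B cell precursors, had 4 of 13 listed genes higher and 6 lower. Their part in the members' changes was not tested.

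The second question was what CsA did to the same genes. With CsA, Rag1 was lower at 12 h and 24 h, 7 members were lower at 48 h, and Ebf1 and Pax5 were lower at 11 days. The comparisons at the 4 times share no arrays. At 12 h, 1 of 10 members was called lower and 0 higher by limma (3 at an unadjusted p under 0.05), where 3.91% of all genes were called lower and 2.82% higher. Rag1 had signals of 528, 425 and 493 with CsA, against 778, 585 and 694 in Flt3-L alone. The highest CsA array lay below the lowest array without it. The log2 difference was -0.51 ± 0.14 (limma adjusted p = 0.0315), and it did not pass without Flt3-L 12 h array 1 (0.126) or 3 (0.0909) or CsA 12 h array 1 (0.0502) or 2 (0.176). A fit of these groups alone gave a limma adjusted p of 0.0796, and 0.0178 with the replicate number as a block. The block over all arrays gave 0.0145, though the numbers were not read as pairs for CsA at 12 h.

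At 24 h again Rag1 was the 1 member called lower and 0 were higher (limma; 5 at an unadjusted p under 0.05), where 2.19% of all genes were called lower and 1.60% higher. Its signals were 406, 354 and 425 with CsA, against 616, 517 and 585 in Flt3-L alone. The groups did not overlap, and the log2 difference was -0.54 ± 0.14 (limma adjusted p = 0.0247). Ebf1 had signals of 1151, 908 and 1017 with CsA, against 1569, 1239 and 1464 in Flt3-L alone. Its groups did not overlap either, at -0.47 ± 0.14 (limma adjusted p = 0.057). Pax5 was at -0.34 ± 0.10 (0.0641) and Lef1 at -0.28 ± 0.088 (0.0775). With the replicate number as a block over all arrays, 4 members passed, with limma adjusted p-values of 0.0375 for Ebf1, 0.0136 for Pax5 and 0.0348 for Lef1 beside Rag1. In a fit of only these groups, Ebf1 had 0.046 without and 0.00514 with the block, Pax5 0.127 and 0.0225, and Lef1 0.19 and 0.0564. The 24 h calls turned on single arrays. Rag1 did not pass without Flt3-L array 1 (0.127) or 3 (0.0861) or CsA array 1 (0.0557) or 2 (0.138). Ebf1 passed without Flt3-L array 2 (0.0409) or CsA array 1 (0.047), Pax5 without CsA array 1 (0.0184) and Lef1 without Flt3-L array 2 (0.0468).

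At 48 h, 7 of 10 members were lower and 0 were higher with CsA by limma (7 at an unadjusted p under 0.05), where 2.34% of all genes were called lower and 2.17% higher. The median log2 difference was -0.42 over the members and 0.02 over all genes. Ebf1 had signals of 649, 534 and 631 with CsA, against 1138, 941 and 1078 in Flt3-L alone, a log2 difference of -0.80 ± 0.14 (limma adjusted p = 0.000594). Rag1 had signals of 185, 159.8 and 226 with CsA, against 334, 312 and 351 in Flt3-L alone, a difference of -0.82 ± 0.14 (adjusted p = 0.000455). For both genes every CsA array was below every array without CsA, and the means were 1.74-fold and 1.76-fold lower. Igll1 had signals of 336, 284 and 287 with CsA, against 536, 462 and 434 in Flt3-L alone, a difference of -0.66 ± 0.11 (limma adjusted p = 0.000418). Vpreb3 had signals of 820.2, 624 and 797 with CsA, against 1206, 1055 and 1158 in Flt3-L alone, a difference of -0.62 ± 0.12 (adjusted p = 0.00299). These groups did not overlap, and the calls of Ebf1, Rag1, Igll1 and Vpreb3 held whichever of the 6 arrays was left out.

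Pax5, Lef1 and Rag2 were also lower at 48 h. Pax5 had signals of 736, 596 and 678 with CsA, against 995, 819.7 and 858 in Flt3-L alone. Lef1 had 157, 128 and 152 with CsA, against 194, 178 and 195 in Flt3-L alone, and Rag2 had 53.3, 46.2 and 46.3 with CsA, against 66.7, 66.6 and 61.8 in Flt3-L alone. In each of these genes the arrays of the groups did not overlap, with log2 differences of -0.41 ± 0.10 (limma adjusted p = 0.0164), -0.38 ± 0.088 (0.00976) and -0.42 ± 0.11 (0.0295). Pax5 did not pass without Flt3-L array 1 (0.113) or CsA array 2 (0.112), nor Lef1 without Flt3-L array 3 (0.0502) or CsA array 2 (0.0862). The Rag2 call was lost on leaving out any 1 of 5 arrays (0.0504 to 0.117) and held without CsA array 1 (0.0304). In all, CsA arrays lay below the others without overlap for 8 of 10 members, against 7.45% of all genes. A fit of these groups alone gave limma adjusted p-values of 0.0739 for Pax5 and 0.0605 for Lef1. With the replicate number as a block these were 0.00647 and 0.0101, and with the block over all arrays 0.00253 and 0.00343. Dntt, Vpreb1 and Blnk did not pass, with 95% intervals of -0.52 to 0.08 for Dntt, -0.27 to 0.22 for Vpreb1 and -0.28 to 0.02 for Blnk.

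At 11 days, 2 of 10 members were lower and 0 were higher by limma (2 at an unadjusted p under 0.05), where 7.08% of all genes were called lower and 4.92% higher. Ebf1 had signals of 34.3, 50.6 and 33.2 with CsA, against 70.7, 74.1 and 93.2 in Flt3-L alone. The difference was -1.03 ± 0.14 (limma adjusted p = 5.56e-06), 2.04-fold lower, with no overlap. Pax5 had signals of 89.4, 88.9 and 88.0 with CsA, against 123, 134 and 156 in Flt3-L alone. All CsA arrays lay below all arrays without CsA, at -0.63 ± 0.10 (limma adjusted p = 6.97e-05), 1.54-fold lower. Both calls held without any 1 of the 6 arrays. Both genes were by then low in each kind of culture, since Flt3-L alone at 11 days was 16.1-fold lower than unstimulated cells for Ebf1 and 8.87-fold lower for Pax5.

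The other 8 members did not pass at 11 days. Rag1 differed by -0.19 with a 95% interval of -0.48 to 0.09, Igll1 by 0.12 (-0.11 to 0.35), Vpreb3 by 0.12 (-0.14 to 0.38) and Lef1 by -0.01 (-0.19 to 0.17). Rag2 had signals of 24.5, 26.7 and 26.2 with CsA, against 22.2, 24.3 and 23.4 in Flt3-L alone. All CsA arrays were the higher ones, at 0.15 (-0.09 to 0.38). Several signals were dim at 11 days: by group mean, Rag2 stood at percentile 11.0 of all genes with CsA and 9.99 in Flt3-L alone, Rag1 at 18.2 and 21.7, and Dntt at 17.7 and 18.7. Ebf1 stood at percentile 17.2 with CsA and 35.9 in Flt3-L alone, so its difference also rests on dim signal, and Pax5 at 38.4 and 49.7. Blnk, the member that rose in culture, had signals of 1754, 1819 and 1778 with CsA, against 1707, 1742 and 1826 in Flt3-L alone, and these overlapped, at 0.02 (-0.13 to 0.17).

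**Figure D3:**
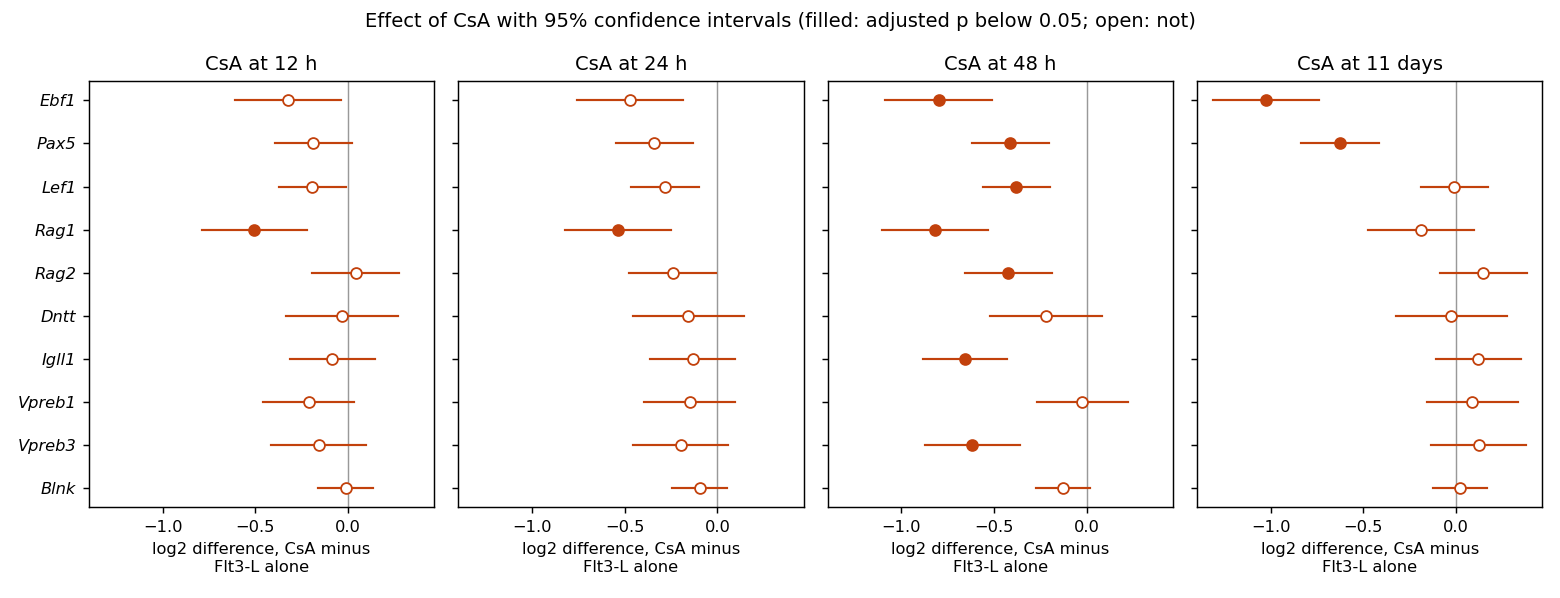
Log2 difference of CsA plus Flt3-L against Flt3-L alone for each member at the 4 times, from the limma fit with 95% intervals (n = 3 arrays a group), with filled points where the adjusted p was below 0.05. Ebf1 ran from -0.33 at 12 h to -1.03 at 11 days, while Igll1 and Vpreb3 were lowest at 48 h, at -0.66 and -0.62.

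Whether the CsA effect differed between times was tested directly, with comparisons added after seeing the data. By 11 days in Flt3-L alone, Igll1 and Vpreb3 stood at 5.17% and 6.39% of their unstimulated level. Their CsA effects at 11 days were thus read on signals far below the unstimulated ones. By group mean in Flt3-L alone these signals lay at percentiles 43.6 and 41.5 of all genes. The effect at 11 days minus that at 48 h was 0.78 ± 0.16 for Igll1 (limma adjusted p = 0.00181) and 0.74 ± 0.18 for Vpreb3 (0.00854), both calls holding without any 1 of the 12 arrays, and 0.57 ± 0.16 for Rag2 (0.0286), which was lost on leaving out any 1 of 8 arrays (0.0523 to 0.0738). These were 3 members higher, where 2.31% of all genes were called higher and 4.65% lower. Rag2 passed without Flt3-L 48 h array 3, Flt3-L 11 day array 2, CsA 48 h array 1 or CsA 11 day array 1. Rag1, at 0.63 (0.0535), passed without Flt3-L 11 day array 3 (0.0277), CsA 48 h array 3 (0.0187) or CsA 11 day array 1 (0.0369). Ebf1 differed by -0.23 ± 0.20 between these times (adjusted p = 0.615) and Pax5 by -0.21 ± 0.14 (0.489). For 48 h minus 12 h, 0 members passed by limma and 4 had an unadjusted p under 0.05 (Ebf1, Rag2, Vpreb3 and Igll1), where 0.441% of all genes were called higher and 0.331% lower. Igll1 was the nearest to the threshold there, at -0.57 ± 0.16 (adjusted p = 0.0836). Without CsA 12 h array 3 it passed (0.046), as did Rag2 (0.0213).

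Averaged over the 4 times, 6 members were lower with CsA and 0 higher by limma (7 at an unadjusted p under 0.05), where 8.22% of all genes were called lower and 7.76% higher. They were Ebf1 at -0.66 ± 0.069 (limma adjusted p = 1.4e-07), Rag1 at -0.51 ± 0.069 (5.51e-06), Pax5 at -0.39 ± 0.051 (3.32e-06), Lef1 at -0.22 (0.000869), Vpreb3 at -0.21 (0.0189) and Igll1 at -0.19 (0.0187). An F test of the 4 effects passed for 7 members, where 18.8% of all genes passed. Dntt (F test adjusted p = 0.623), Vpreb1 (0.445) and Blnk (0.457) did not pass it by limma, nor were they called in any comparison of CsA plus Flt3-L with Flt3-L alone. For the effect at 11 days less the average of those before, 1 member was lower (Ebf1) and 2 were higher (Vpreb3 and Igll1), where 6.70% of all genes were lower and 5.21% higher. Each of these 3 calls was lost on leaving out 1 of several arrays, with limma adjusted p-values up to 0.198, 0.212 and 0.127.

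The steps between times were also measured within the CsA cultures. There 48 h against 24 h gave 7 members lower and 0 higher, where 9.24% of all genes were called lower and 13.0% higher by limma (7 members at an unadjusted p under 0.05). Igll1 fell by 3.09-fold over this step (log2 difference -1.63 ± 0.11, limma adjusted p = 6.38e-11) and Rag1 by 2.09-fold (-1.06 ± 0.14, 2.18e-06). From 24 h against 12 h, Dntt (-0.75, limma adjusted p = 0.000509), Igll1 (-0.62, 0.000201), Rag2 (-0.52, 0.00157) and Lef1 (-0.45, 0.000537) were lower, where 8.23% of all genes were lower and 8.13% higher. Vpreb1 (-0.26, 0.144) was not called. When arrays were left out 1 at a time, Vpreb1 passed only without CsA 12 h array 3 (0.0152), and it also passed with arrays weighted in the limma fit (0.0144). From 11 days against 48 h, 8 members were lower and Blnk was higher at 0.75 ± 0.071 (adjusted p = 2.17e-09), where 19.3% of all genes were called lower and 23.8% higher.

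Related B lineage genes were measured in the same comparisons. Of 9 mature B cell genes, 4 were lower at 12 h, 5 at 24 h, 5 at 48 h and 6 at 11 days, and 1 was higher at 11 days. At 11 days the B cell surface gene Ms4a1 was at -3.31 ± 0.15 (limma adjusted p = 2.7e-14) and the IgM receptor gene Fcmr at -2.49 ± 0.12 (6.51e-14). Their summed signals were 4470 to 5246 with CsA and 6059 to 6664 in Flt3-L alone at 48 h, and 1419 to 1797 with CsA and 2937 to 3323 in Flt3-L alone at 11 days. The share of the members' differences that goes with these genes was not tested. Of 17 receptor signalling genes, 4 were lower at 12 h, 8 at 24 h and 7 at 48 h, and at 11 days 7 were lower and 3 higher, with the receptor chain genes Cd79a at -2.30 ± 0.10 (limma adjusted p = 2.24e-14) and Cd79b at -2.35 ± 0.098 (1.3e-14). Of 21 B lineage regulators, 3 were lower at 12 h, 3 at 24 h and 11 at 11 days, with Spib at -1.59 (5.2e-11), Ikzf3 at -1.48 (1.21e-10) and Flt3, the receptor of the ligand added, at -0.89 (9.26e-08). At 48 h 6 of them were lower and 2 higher, with Ikzf3 at -0.64 (0.00029) and Pou2af1 at -0.64 (0.00265).

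Of 13 genes listed for V(D)J end joining, limma called 0 at each of the 4 times, and 4, 2, 3 and 0 had an unadjusted p under 0.05 at 12 h, 24 h, 48 h and 11 days. For CsA, limma called 3.91% of all genes lower and 2.82% higher at 12 h, 2.19% and 1.60% at 24 h, and 2.34% and 2.17% at 48 h. At 11 days these shares were 7.08% and 4.92%, and for the mean effect 8.22% and 7.76%. A count of 0 of 13 genes is near these shares and is not read as a result about the list. Of 9 early B surface genes, 2 were lower at 24 h and 1 at 48 h, the interleukin 2 receptor gene Il2ra at -1.13 ± 0.12 (limma adjusted p = 9.19e-07), and at 11 days 5 were lower and 1 higher. Of 12 partners of TCF/LEF factors, 1 was higher and 1 lower at 12 h and 1 was higher at 11 days. Of 18 T and NK cell genes 1 was lower at 12 h and 1 at 48 h, 5 were lower and 1 higher at 11 days, and of 11 division genes 1 was higher at 12 h, 2 at 11 days and 6 for the mean effect over the 4 times. Of 13 plasmacytoid dendritic cell genes 2 were lower at 12 h and 4 at 48 h, and 6 were lower and 4 higher at 11 days. Macrophage sums at 11 days were 64955 to 65544 with CsA and 63521 to 65844 in Flt3-L alone, so these overlapped. Sums over the 12 granulocyte and erythroid genes did not overlap at either late time, at 28307 to 30261 with CsA and 30621 to 32150 in Flt3-L alone at 48 h, and 1059 to 1148 with CsA and 1749 to 1964 in Flt3-L alone at 11 days. Of these 12 genes, 1 was lower at 24 h, 1 at 48 h and 5 at 11 days. The part of these genes in the members' differences was not tested.

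**Figure D4:**
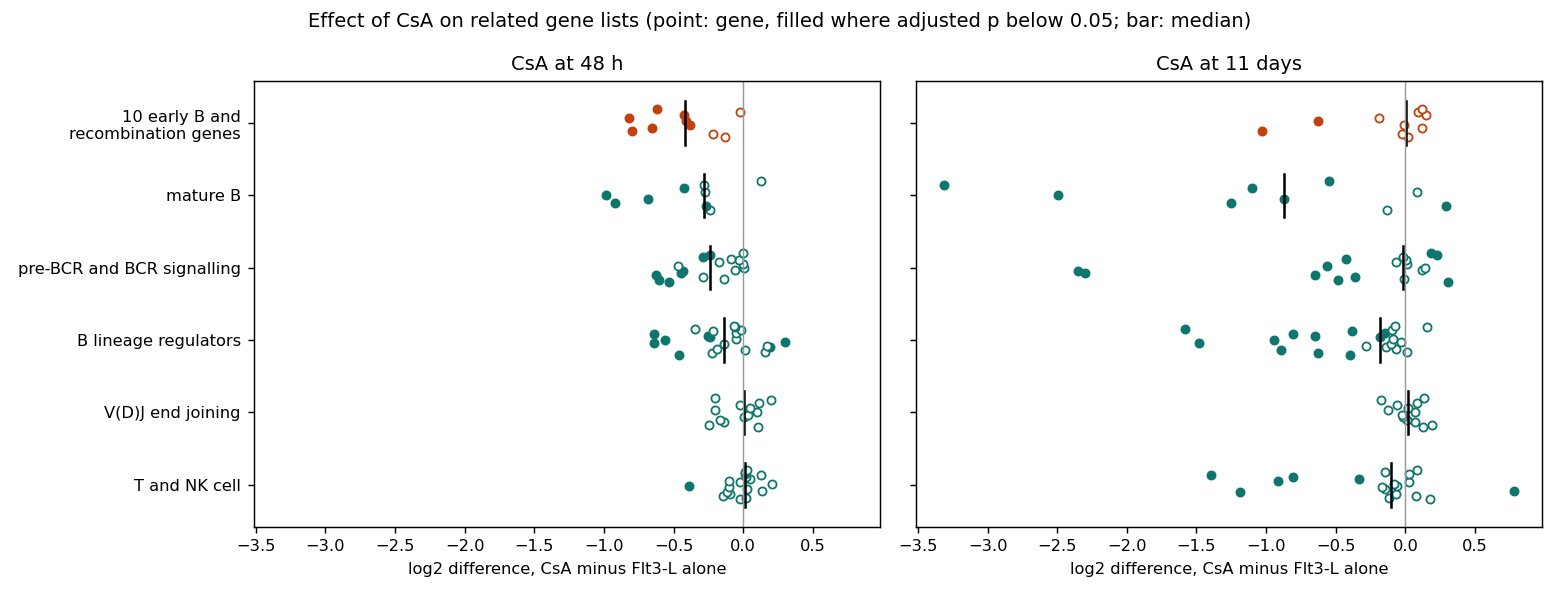
Log2 difference of CsA plus Flt3-L against Flt3-L alone at 48 h (left) and 11 days (right) for the 10 members and 5 related gene lists. Each point is a gene, filled where its adjusted p was below 0.05, and bars are medians. At 48 h the medians were -0.42 for the members, -0.29 for the mature B cell genes and 0.00 for V(D)J end joining genes, and at 11 days the mature B cell median was -0.87.

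Across the 9 group means, which share arrays and a time course, the members other than Blnk correlated positively with each other. Ebf1 and Pax5 correlated at r = 0.996 and Lef1 and Rag2 at r = 0.993, whereas Blnk correlated negatively with every other member. Vpreb1 was the least like the rest, at 0.632 to 0.86 with the other members apart from Blnk. Of 3743 other genes whose group means spanned at least 1 log2 unit, the closest to Ebf1 was the B cell coactivator gene Pou2af1 (r = 0.9992), followed by Cpa3, a mast cell gene (0.9984). The closest to Pax5 was Ly6g, a neutrophil gene of the granulocyte list (r = 0.9983), and to Lef1 Spata13 (0.996). The closest to Rag1 was Serinc5 (r = 0.997), to Rag2 Dnah6 (0.9964), to Dntt Lmnb1 (0.9967), to Igll1 Ndrg2 (0.9965), to Vpreb1 Rnase2b (0.9788), to Vpreb3 Clec5a (0.9984) and to Blnk Ecm1 (0.9965). These correlations over 9 groups carry no test.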

How the data were processed

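Total RNA of the 27 cultures was hybridised to one-colour Affymetrix arrays. The authors made the deposited intensity values, 1 signal per probe set, with RMA (per the submitters' processing notes, no version given). With values from 5.2 to 18180.7 the table is on a linear scale, so log2 was applied first, although the plan had assumed that log2 values were deposited. Of 28815 probe sets, 21780 were listed with a single symbol, 1605 with several and 5430 with none in the platform annotation, which can be old. Each of 19935 genes was represented by its probe set of highest mean log2 signal over all 27 arrays.

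Means of all 9 groups were fitted with limma 3.58.1 (R 4.3.3), with Benjamini-Hochberg adjustment over all genes of each comparison and a threshold of 0.05. Errors are standard errors (SE) of this fit, whose precision is limited by having few arrays. Plots and promoter searches used matplotlib 3.10.9, numpy 2.4.6 and pandas 2.3.3 under Python 3.11.15. The fit was tested on simulated data. The members and gene lists were chosen with earlier results of these data known. The direct comparisons of CsA effects between 12 h and 48 h and between 48 h and 11 days were added after seeing the data. All members were described, list genes were named by the size of their change among those that passed, and the genes most like a member were its 3 closest by Pearson's r. Alternatives were array weights, a variance trend, no dim genes, median or quantile scaling, fits of single comparisons, leaving out each array and the replicate number as a block. Replicate numbers come from the labels. Deviations of same-numbered arrays correlated above 0.1 in all 3 pairs for CsA at 24 h (0.346 to 0.398) and 48 h (0.178 to 0.539), Flt3-L at 12 h (0.103 to 0.196) and 24 h (0.126 to 0.347) against unstimulated cells, and Flt3-L 48 h against 24 h (0.405 to 0.459). The numbers were therefore read as pairs there, and not in the other comparisons. CsA at 12 h missed this limit by 1 pair, at 0.19, 0.188 and 0.098. There each array's deviations correlated best with those of its own number, which was not so for CsA at 48 h or Flt3-L at 24 h. Promoter windows came from RefSeq, where all 10 members matched.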

Additional observations from a re-analysis of the deposited data

Results flagged for a closer look

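Values that stood out were differences between CsA effects at different times. The comparison of 11 days with 48 h was added after seeing the data. The effect at 11 days minus the effect at 48 h was 0.78 for Igll1, 0.74 for Vpreb3 and 0.57 for Rag2 on the log2 scale (limma adjusted p = 0.00181, 0.00854 and 0.0286): at 48 h all 3 were lower with CsA, and at 11 days they differed by 0.12, 0.12 and 0.15. Against the average of the effects at 12 h, 24 h and 48 h, the one at 11 days differed by -0.49 for Ebf1 (limma adjusted p = 0.0449), 0.45 for Vpreb3 (0.0447) and 0.41 for Igll1 (0.0354), where 5.21% of all genes were called higher and 6.70% lower. These 3 calls were lost on leaving out any 1 of 14 arrays for Ebf1, 14 for Vpreb3 and 9 for Igll1, out of the 24 in the comparison, with adjusted p-values up to 0.198, 0.212 and 0.127, the largest without Flt3-L 11 day array 3 for Ebf1 and Vpreb3 and without Flt3-L 11 day array 1 for Igll1. At 11 days with CsA, the signals of Ebf1, Vpreb3 and Igll1 lay between 33.2 and 119.5. By group mean these genes stood at percentiles 17.2, 43.0 and 45.1 of all genes. The cause of these differences was not tested.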

How the results depend on the processing

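Of 1782 member values recomputed under the alternatives that keep all arrays of a comparison, 1710 kept their direction where called and their side of the threshold. Another 62 passed it newly, 10 no longer passed and 0 changed the sign of a call. Only array weights and median or quantile scaling could change a sign, since the other alternatives left the members' log2 differences as they were. Averaging a gene's probe sets could change nothing in a member's own signals, as each had exactly 1. The count of members called for CsA at 24 h, 1 as reported, was 3 with a variance trend, 2 with array weights, 3 without the dim genes, 2 with array medians subtracted, 2 with only the groups compared, and with the replicate number as a block 4 over all arrays and 3 with only the groups compared. At 12 h it was 0 with only the groups compared. For 48 h minus 12 h it was 3 with array weights, 1 with array medians subtracted, 1 with the block over all arrays and 3 with the block over only the groups compared, against 0 as reported. For 11 days minus 48 h it was 5 with the block over all arrays, against 3. For 11 days less the average of those before it was 1 after a second quantile normalization, 6 with the block over all arrays, 1 with only the groups compared and 5 when these were blocked, against 3. Where the numbers were read as pairs, the block over all arrays changed no other call of a member than Ebf1, Pax5 and Lef1 for CsA at 24 h, Ebf1 for Flt3-L at 12 h and Rag1 for Flt3-L at 24 h, as given above. In the other comparisons the numbers were not read as pairs, which for CsA at 12 h turned on 1 correlation of 0.098.

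The count over all genes for CsA at 12 h, 1341 as reported, was 5301 with array weights, 2111 with the block over all arrays, 177 with only the groups compared and 213 when these were blocked. With only the groups compared it was 396 at 24 h (754 as reported), 451 at 48 h (899), 1966 for CsA cultures at 24 h against 12 h (3261) and 59 for 48 h minus 12 h (154). The difference between 48 h and 12 h gave 1472 with array weights, 77 with array medians subtracted and 334 with the block over all arrays, and CsA at 11 days gave 1445 with only the groups compared and blocked (2391). The cause was not tested.

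Leaving out each array in turn gave 0 to 1 members called for CsA at 12 h, 0 to 3 at 24 h, 4 to 7 at 48 h, 2 at 11 days and 6 for the mean effect, 0 to 2 for 48 h minus 12 h, 2 to 4 for 11 days minus 48 h and 0 to 3 for 11 days minus the earlier mean. In Flt3-L alone against unstimulated cells it gave 5 to 6 at 12 h, 4 to 6 at 24 h, 8 to 9 at 48 h and 10 at 11 days. It gave 3 to 4 for 24 h against 12 h, 5 to 7 for 48 h against 24 h, and 4 to 5 for CsA cultures at 24 h against 12 h. Over all genes it gave 332 to 3221 for CsA at 12 h, the lowest without CsA 12 h array 2, 475 to 594 at 24 h, 586 to 693 at 48 h, and 43 to 589 for 48 h minus 12 h. Dim signal limits Rag2, which the dim gene filter left out.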
